A study of Mus musculus with 6 samples.

Results

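The insulin-like growth factor (IGF) family was followed through 10 genes of 20665 in the table: the ligands Igf1 and Igf2, the receptors Igf1r and Igf2r, and the binding proteins Igfbp2, Igfbp3, Igfbp4, Igfbp5, Igfbp6 and Igfbp7. They were matched by gene symbol, and the family was selected on the normalized counts of irradiated against non-irradiated cells in these same libraries, which were known. All 10 passed the filter on low values, a level of 10 normalized counts in 3 or more libraries, and so were among the 16141 genes tested. RNA was sequenced from primary fibroblasts of the gingiva, cells that build the connective tissue of the gum, from wild-type C57BL/6 mice. For 3 libraries, cells in a 35-mm dish were irradiated by an Er:YAG laser, whose infrared light is used on teeth and gums, at 3.9 J/cm2 from 25 cm. The other 3 libraries came from cells left without irradiation, and both groups are labelled 3 h. The comparison asked how the laser alters gene expression early after exposure. Whether the libraries within a group are separate mice or cultures is not stated, so the p-values cover only the variation among these libraries, which may be technical.

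IGF1 and IGF2 are small secreted hormones that drive growth and survival through the receptor tyrosine kinase IGF1R, which signals through IRS adaptors, PI3K and AKT. The receptor encoded by Igf2r has no kinase and carries IGF2 to lysosomes. IGF binding proteins hold the ligands in the extracellular space, and proteases such as PAPP-A release them again. Connective tissue cells make much of the local supply of ligands and binding proteins.

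The libraries held 45178137 to 59904715 gene-assigned reads. Of the fibroblast markers 10 of 10 were listed, with summed levels of 1985988 to 2786038 normalized counts in irradiated and 1802898 to 2953823 in non-irradiated libraries. Markers of other cells were far lower. Their sums were 19.2 to 91.0 and 15.5 to 22.3 normalized counts for 4 of 6 epithelial markers, and 233 to 384 and 241 to 287 for 4 of 5 leukocyte markers, in irradiated and non-irradiated libraries in each case. Endothelial markers (4 of 4) summed to 186 to 600 and 127 to 617, and skeletal muscle markers (2 of 4) to 40.4 to 77.7 and 42.6 to 75.3. None of these listed markers was at 0 in every library. Sox10, a transcription factor of Schwann cells and other neural crest derivatives, was at 430 to 708 in irradiated and 433 to 802 in non-irradiated libraries, above the sums of the epithelial, leukocyte and muscle markers in each group. Same-numbered libraries of the irradiated and non-irradiated groups deviated together, and the replicate number is used below as the pair.

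Irradiated and non-irradiated libraries overlapped for all 10 IGF genes, where 4.73% of all tested genes did not overlap. Between the replicate numbers, however, the family differed widely: Igf2 was 125 times and Igfbp2 37.6 times as high in replicate 3 as in replicate 1 in the mean of the irradiated and non-irradiated library, and both groups had this order. The Igf2 ratio rests on 11 and 9 reads in replicate 1. Summed with the overlapping gene model Gm49394, its log2 difference of replicate 3 minus replicate 1 was 4.38, against 6.86 alone. Igf1 and Igfbp4 were also highest in replicate 3, and Igfbp6 and Igf2r were highest in replicate 1. Igfbp7 was nearly level across the 6 libraries.

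**Figure D1:**
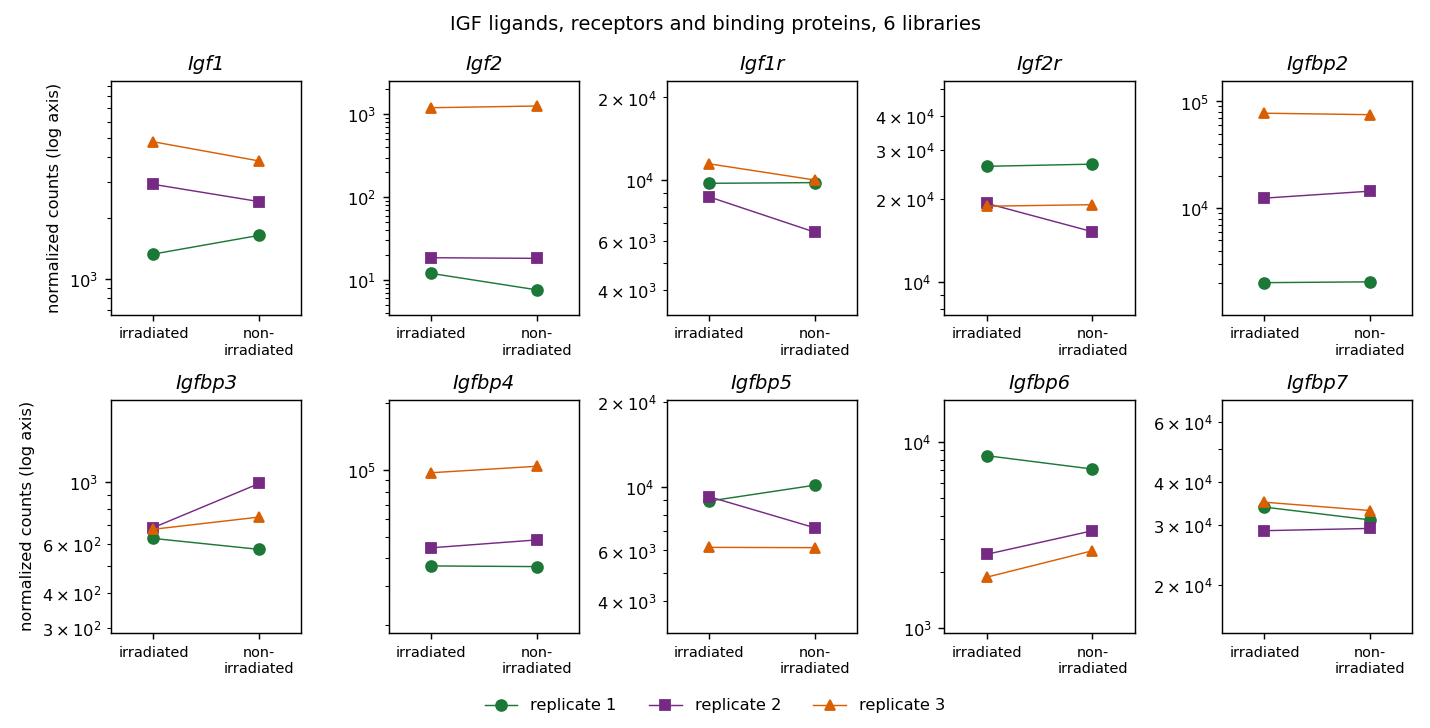
Normalized counts of the 10 IGF genes on log axes, with irradiated libraries on the left and non-irradiated ones on the right of each panel; lines join libraries of the same replicate number, coloured by number. The lines are nearly flat and far apart for Igf2 and Igfbp2, where replicate 3 stands at 1197 and 1256, and at 77631 and 75202 normalized counts.

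Of the ligands, Igf2 (ENSMUSG00000048583.17, chromosome 7), the imprinted growth factor of the embryo, had 12.0, 18.6 and 1197 normalized counts in irradiated replicates 1, 2 and 3, against 7.61, 18.3 and 1256 in non-irradiated replicates 1, 2 and 3. Both libraries of replicate 3 were high and the other 4 were low, resting on 11, 19, 9 and 18 reads. The mean of replicate 3 was 125 times that of replicate 1 and 66.6 times that of replicate 2. On the log2(normalized count + 1) scale the difference of replicate 3 minus replicate 1 was 6.86 ± 0.39 (SE). Igf1 (ENSMUSG00000020053.19, chromosome 10), the ligand induced by growth hormone, had 1323, 2931 and 4763 normalized counts in irradiated and 1638, 2407 and 3828 in non-irradiated replicates 1, 2 and 3. Its 3 numbers stood in the same order in both groups, lowest in replicate 1 and highest in replicate 3, with a log2 difference of 1.54 ± 0.16 (SE) between replicates 3 and 1.

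Igf2 cannot be read alone. Its exons overlap those of Gm49394, an unnamed gene model on the same strand that in GENCODE release M21 (build GRCm38) covers 62.8% of the exon bases of Igf2. Gm49394 had 31.7, 113 and 0 normalized counts in irradiated and 68.5, 95.4 and 0 in non-irradiated replicates 1, 2 and 3, so it was at 0 where Igf2 was high and above Igf2 elsewhere. The authors' counting may have divided shared reads between them, so both values are uncertain. Summed as 1 gene they had 43.7, 132 and 1197 normalized counts in irradiated and 76.1, 114 and 1256 in non-irradiated replicates 1, 2 and 3. The log2 difference of replicate 3 minus replicate 1 was then 4.38 ± 0.28 (SE), and the sum still differed between replicate numbers in limma's F test (adjusted p = 8.04e-05).

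Of the receptors, Igf1r (ENSMUSG00000005533.11, chromosome 7), which carries the growth signal, had 9744, 8703 and 11477 normalized counts in irradiated and 9802, 6476 and 10018 in non-irradiated replicates 1, 2 and 3. Replicate 2 was lowest in both groups. Igf2r (ENSMUSG00000023830.15, chromosome 17), which clears IGF2 and is imprinted in the mouse, had 26215, 19249 and 18794 in irradiated and 26691, 15193 and 19035 in non-irradiated replicates 1, 2 and 3. Both libraries of replicate 1 were above the other 4, with a log2 difference of -0.48 ± 0.11 (SE) for replicate 3 minus replicate 1 and of -0.63 ± 0.11 for replicate 2 minus replicate 1.

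Of the binding proteins, Igfbp2 (ENSMUSG00000039323.19, chromosome 1), a carrier that also binds integrins, had 2016, 12456 and 77631 normalized counts in irradiated and 2052, 14477 and 75202 in non-irradiated replicates 1, 2 and 3. The 3 numbers were far apart and the pairs close together. Replicate 3 was 37.6 times replicate 1 and 5.67 times replicate 2 in mean, with log2 differences of 5.23 ± 0.10 and 2.51 ± 0.10 (SE). Igfbp4 (ENSMUSG00000017493.13, chromosome 11), an inhibitor of IGF action that PAPP-A cleaves, had 37008, 44677 and 97441 in irradiated and 36757, 48495 and 104199 in non-irradiated replicates 1, 2 and 3. Replicate 3 stood above the other 4 libraries at 2.73 times replicate 1 (log2 difference 1.45 ± 0.09, SE).

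Igfbp6 (ENSMUSG00000023046.7, chromosome 15), which prefers IGF2 over IGF1, ran the other way. It had 8401, 2487 and 1875 normalized counts in irradiated and 7123, 3326 and 2598 in non-irradiated replicates 1, 2 and 3. Replicate 3 minus replicate 1 was -1.81 ± 0.17 (SE) on the log2 scale, and replicate 1 in mean was 3.47 times replicate 3. Igfbp5 (ENSMUSG00000026185.9, chromosome 1), which binds extracellular matrix, had 8944, 9275 and 6152 in irradiated and 10171, 7210 and 6137 in non-irradiated replicates 1, 2 and 3. Replicate 3 was lowest in both groups, with a log2 difference of -0.63 ± 0.13 (SE) from replicate 1. Igfbp2 and Igfbp5 are neighbours on chromosome 1, and replicate 3 was highest for Igfbp2 and lowest for Igfbp5.

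Igfbp3 (ENSMUSG00000020427.12, chromosome 11), the main IGF carrier of blood, had 628, 687 and 677 normalized counts in irradiated and 574, 988 and 749 in non-irradiated replicates 1, 2 and 3. Igfbp7 (ENSMUSG00000036256.14, chromosome 5), a secreted relative with low affinity for IGFs, had 33799, 28822 and 34940 in irradiated and 30995, 29266 and 33022 in non-irradiated replicates 1, 2 and 3. Its range over the 6 libraries, 0.28 on the log2 scale, was wider than that of only 10.5% of tested genes, against 99.8% for Igf2 and 98.8% for Igfbp2. In the reference annotation Igfbp7 shares 7.03% of its exon bases with Polr2b on the opposite strand, and no source used here gives the strand setting.

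Promoter sequences are shown for 4 of the 5 genes with the largest differences between replicates 3 and 1: Igf2, Igfbp2 and Igfbp4, highest in replicate 3, and Igfbp6, highest in replicate 1. The window of Igf1, the other of the 5, lies within an exon and is not shown. Each sequence is the 250 bases before an annotated start, from RefSeq on GRCm38.p6, read in the direction of the gene. For Igf2 the start farthest downstream of 4 listed was taken, and for Igfbp2 the first of 2. The positions are chr7:142657497-142657746 on the minus strand, chr1:72824230-72824479 on the plus strand, chr11:99040994-99041243 on the plus strand and chr15:102143936-102144185 on the plus strand. Capitals mark GC boxes (GGGCGG) and the TATA-type motifs TATAAA and ATAAAA, each on either strand, and no match of these overlaps another here.
Igf2: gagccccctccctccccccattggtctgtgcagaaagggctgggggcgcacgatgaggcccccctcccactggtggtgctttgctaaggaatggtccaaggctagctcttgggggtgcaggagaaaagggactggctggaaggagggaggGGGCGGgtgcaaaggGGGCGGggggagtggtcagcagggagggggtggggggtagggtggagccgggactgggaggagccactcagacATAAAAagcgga
Igfbp2: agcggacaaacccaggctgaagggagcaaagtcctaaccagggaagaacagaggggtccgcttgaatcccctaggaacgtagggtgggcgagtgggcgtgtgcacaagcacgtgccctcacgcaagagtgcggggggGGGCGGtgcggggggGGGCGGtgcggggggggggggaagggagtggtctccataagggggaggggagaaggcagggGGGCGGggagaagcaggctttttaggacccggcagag
Igfbp4: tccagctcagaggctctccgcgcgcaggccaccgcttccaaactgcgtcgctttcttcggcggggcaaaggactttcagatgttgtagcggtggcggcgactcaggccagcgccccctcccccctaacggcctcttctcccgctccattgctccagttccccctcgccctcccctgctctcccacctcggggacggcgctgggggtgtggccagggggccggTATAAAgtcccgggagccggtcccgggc
Igfbp6: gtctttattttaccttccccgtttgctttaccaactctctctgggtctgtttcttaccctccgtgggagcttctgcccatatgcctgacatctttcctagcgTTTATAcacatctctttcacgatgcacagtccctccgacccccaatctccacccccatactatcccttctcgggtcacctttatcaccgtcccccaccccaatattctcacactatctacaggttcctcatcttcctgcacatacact

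The Igf2 window held 2 GC boxes and 1 ATAAAA, and the Igfbp2 window 3 GC boxes and no TATA-type motif. The Igfbp4 and Igfbp6 windows each held 1 TATAAA, that of Igfbp6 on the opposite strand, and no GC box. Among 32851 such windows of 27025 genes, 32.7% held a GC box, 12.4% TATAAA and 17.0% ATAAAA. These are letter matches and were not tested as binding sites.

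The test of the replicate number asked whether the 3 numbers differ once irradiation is allowed for. It does not use the irradiation contrast on which the family was chosen, but other values of these libraries were known by then. In limma's moderated F test, with Benjamini-Hochberg adjustment over 16141 genes, 8 of 10 IGF genes passed an adjusted p of 0.05, against 13.4% of all tested genes. Igfbp2 had the smallest p of all tested genes (adjusted p = 2.54e-07 in limma). Igf2 (adjusted p = 3.52e-05), Igfbp4 (7.40e-05), Igfbp6 (0.000484) and Igf1 (0.00117) also passed in limma and kept the call in every alternative in which they were tested. Igf2r (adjusted p = 0.0150 in limma) lost the call without a filter on low values (0.0607). Igfbp5 (0.0316) lost it there (0.0951), without irradiated replicate 3 (0.135) and without non-irradiated replicate 3 (0.0605), all in limma. Igf1r (adjusted p = 0.0422 in limma) kept it in 8 of 14 alternatives, with a highest adjusted p of 0.122. It lost it without irradiated replicate 3 (0.112), without non-irradiated replicate 2 (0.0945) and without non-irradiated replicate 3 (0.122), and 3 other settings ended it too. Igfbp3 (adjusted p = 0.248 in limma) and Igfbp7 (0.244) did not pass, and Igfbp3 passed without irradiated replicate 2 (0.0348).

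**Figure D2:**
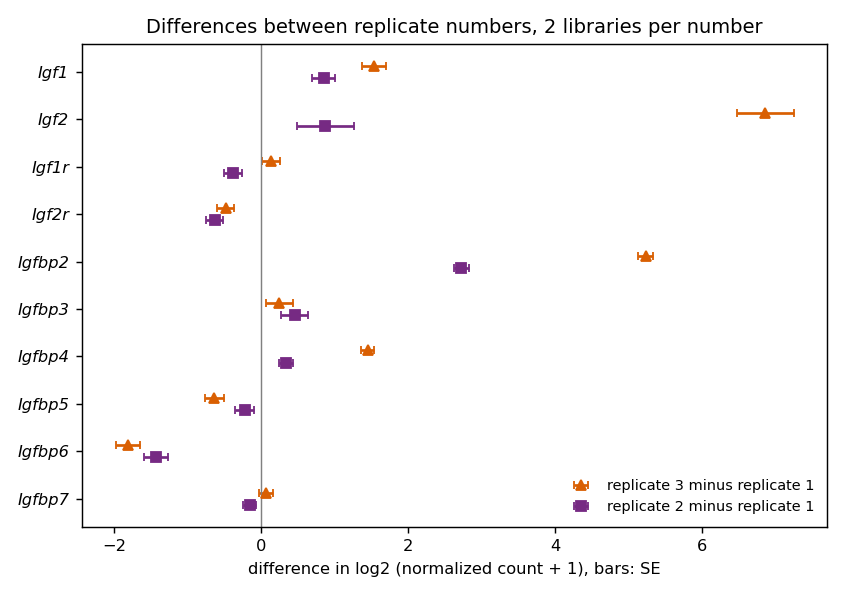
Differences between replicate numbers in log2 (normalized count + 1) for the 10 IGF genes, as replicate 3 minus replicate 1 and replicate 2 minus replicate 1; bars are SE from limma with irradiation as a term, 2 libraries per number. Igf2 and Igfbp2 lie at 6.86 and 5.23 for replicate 3, and Igfbp6 at -1.81.

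For each of the 10 genes both libraries of 1 replicate number lay above or below the other 4 libraries, which held for 60.7% of all tested genes. Both libraries of replicate 3 were highest for 5 of the 10 and lowest for 1, where 10.7% and 9.38% of tested genes were. Both libraries of replicate 1 were highest for 2 and lowest for 5, where 16.7% and 16% of tested genes were. Replicate number took a median of 91.1% of the sum of squares of the IGF genes and 62.6% over all tested genes, irradiation 1.46% and 6.49%. With no effect of either, the expected shares are 40% for replicate number and 20% for irradiation. The highest share for replicate number was that of Igfbp2 at 99.9%, and the lowest that of Igfbp3 at 57.2%. The median size of the log2 difference of replicate 3 minus replicate 1 was 1.04 for the IGF genes and 0.22 over all tested genes.

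Markers of the cells moved with the replicate number as well. Of the 4 endothelial markers Tek and Kdr passed the replicate number test in limma, and their sum was carried by these. Tek had 378, 72.4 and 70.2 normalized counts in irradiated and 382, 49.7 and 48.6 in non-irradiated replicates 1, 2 and 3, and Kdr 184, 92.0 and 55.8 and 185, 90.3 and 42.0. Cdh5 and Pecam1, at 7.61 to 43.0 over all libraries, did not pass, and both libraries of replicate 1 were lowest for Cdh5. Sox10 passed (adjusted p = 0.0259 in limma), with 526, 708 and 430 in irradiated and 503, 802 and 433 in non-irradiated replicates 1, 2 and 3, highest in replicate 2. Of the fibroblast markers, 7 of 10 passed the replicate number test in limma, against 13.4% of all tested genes. Lum was higher in replicate 3 than in replicate 1, and the others that passed, Col1a2, Col3a1, Pdgfrb, Thy1, Dcn and Fn1, were lower. Lum, a collagen-binding proteoglycan, had 50.3, 994 and 1063 in irradiated and 59.2, 1119 and 782 in non-irradiated replicates 1, 2 and 3, and Col3a1 had 298103, 114441 and 98309 in irradiated and 326117, 109529 and 89796. The part of these shifts in the IGF results was not tested, and in bulk RNA fewer cells of a type and less RNA per cell cannot be told apart.

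Set by length, Igfbp7 and Igfbp4 were among the 3 most abundant genes of the family in each of the 6 libraries. Igfbp2 led in both libraries of replicate 3, at 42031 and 40716 normalized counts per kilobase in the irradiated and non-irradiated one. In replicate 1 it had 1091 and 1111, below Igf2r at 2816 and 2868 and Igfbp5 at 1489 and 1694. In normalized counts per kilobase of exon the order of the means over 6 libraries was Igfbp7, Igfbp2, Igfbp4, Igfbp6, Igf2r, Igfbp5, Igf1r, Igf1, Igfbp3 and Igf2. Igfbp7 had a level of 26898 ± 2691 per kilobase in irradiated and 25719 ± 1555 in non-irradiated libraries (SD, n = 3 each), above 99.6% of tested genes. Igf1 had 303 ± 174 and 265 ± 112, and Igf2 71.5 ± 119 and 74.6 ± 125 per kilobase, in irradiated and non-irradiated libraries. Neighbours in this order overlapped in their ranges over the libraries except Igfbp4 with Igfbp6, and Igfbp5 with Igf1r. The exon lengths come from GENCODE release M21 on another build than the authors' one, so small differences per kilobase carry that uncertainty.

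The make-up of the binding protein transcripts followed the replicate number. Igfbp2 took 2.34%, 15.1% and 43.8% of the summed level per kilobase of the 6 genes in irradiated replicates 1, 2 and 3, against 2.56%, 16.5% and 42.8% in the non-irradiated ones. Igfbp6 took 16.2%, 5.00% and 1.76% in irradiated and 14.8%, 6.29% and 2.45% in non-irradiated replicates 1, 2 and 3. Igfbp7 led in replicates 1 and 2, with 59.9% and 53.3% in irradiated and 59.1% and 50.9% in non-irradiated libraries, and Igfbp2 led in both libraries of replicate 3.

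**Figure D3:**
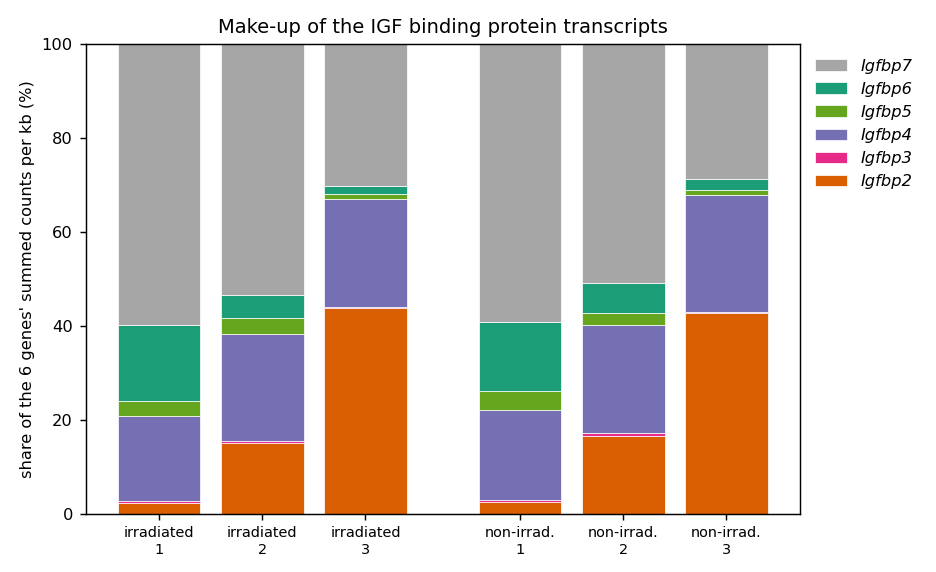
Share of each of 6 binding protein genes in their summed normalized counts per kilobase, 1 bar per library, irradiated on the left and non-irradiated on the right. Bars of the same number look alike across the groups, with Igfbp2 at 43.8% and 42.8% in replicate 3.

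Irradiated against non-irradiated cells, the IGF genes showed small and mixed differences. The members were chosen with this contrast known, so its values are a description. In the pairs of replicates 1, 2 and 3 the log2 ratio of irradiated over non-irradiated was -0.31, 0.28 and 0.32 for Igf1, and -0.01, 0.43 and 0.20 for Igf1r. The mean over the pairs was 0.10 ± 0.13 for Igf1 and 0.20 ± 0.10 for Igf1r (SE with the replicate block). For Igfbp6 the pairs gave 0.24, -0.42 and -0.47, with a mean of -0.22 ± 0.14, and for Igfbp3 0.13, -0.52 and -0.14, with a mean of -0.18 ± 0.15 (SE with the block). The means of Igf2r, Igfbp5 and Igfbp7 were 0.10 ± 0.09, 0.06 ± 0.11 and 0.06 ± 0.07, and those of Igfbp2 and Igfbp4 -0.07 ± 0.08 and -0.07 ± 0.07. Igf2 had a mean of 0.18 ± 0.32, led by the pair of replicate 1 at 0.60, which rests on 11 and 9 reads, and summed with Gm49394 it turned to -0.21.

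**Figure D4:**
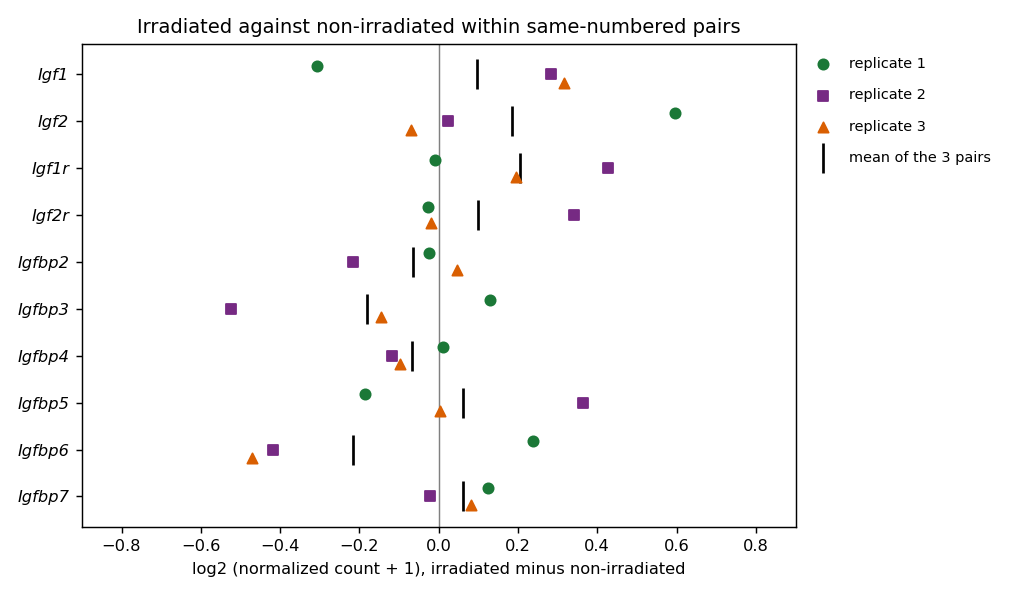
Irradiated minus non-irradiated log2 (normalized count + 1) of the 10 IGF genes, 1 point per same-numbered pair and a bar at the mean of the 3 pairs. Points of each gene lie on both sides of 0, and the means run from -0.22 for Igfbp6 to 0.20 for Igf1r.

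None of the 10 genes moved in the same direction in all 3 pairs, where 11.8% of tested genes were higher and 11% lower in all 3. The groups did not overlap for 0 of the 10, where 4.73% of tested genes did not. In limma without the block 0 of the 10 passed an adjusted p of 0.05, and 0% of all tested genes did. With the replicate block again 0 of the 10 passed, where 0.0186% of tested genes did. At an unadjusted p under 0.05 there were 0 of the 10 in limma without the block and 0 with it, where 0.818% and 3.26% of tested genes were found. Of the 10, 0 passed in edgeR or in the authors' deposited table. In DESeq2 again 0 passed, but it gave no p-value for Igf2, which was therefore not tested there. The median log2 fold change was 0.06 for the IGF genes, 6 of them above 0, and 0.005 over all tested genes, and the median size without sign was 0.10 and 0.11. Without the block the standard error of Igfbp2 was 1.58 and that of Igf2 2.26, against 0.08 and 0.32 with it.

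**Figure D5:**
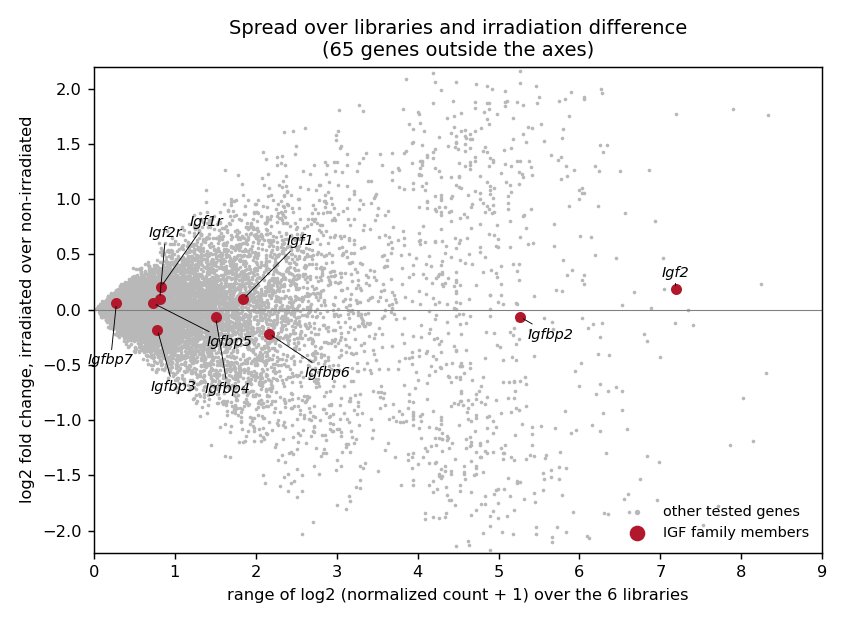
Range of log2 (normalized count + 1) over the 6 libraries against the log2 fold change of irradiated over non-irradiated cells for tested genes (grey) and the 10 IGF genes (red, labelled), with 65 genes outside the axes. Igf2 and Igfbp2 lie far right, at ranges of 7.19 and 5.27, with log2 fold changes of 0.18 and -0.07.

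Of 43 other genes of the pathway 38 were in the table and 37 were tested. In the irradiation contrast 0 of the 37 passed an adjusted p of 0.05 in limma without the block, and 0% of tested genes did. With the replicate block again 0 of the 37 passed, where 0.0186% of all tested genes did. Without the block 0 of the 37 had an unadjusted p under 0.05 in limma, where 0.818% of all tested genes had. The median log2 fold change of the 37 was 0.07, against 0.005 over all tested genes. Of 5 other ligands and carriers 1 was in the table, Igfals, a blood carrier subunit, with 13.1, 3.91 and 0 normalized counts in irradiated and 0, 7.10 and 8.84 in non-irradiated replicates 1, 2 and 3, too low to test. Between replicate numbers 13 of the 37 passed in limma, against the 13.4% of all tested genes.

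Proteases of the binding proteins and their inhibitors held 4 of 6 genes that differed between numbers, against 13.4% of all tested genes. Pappa2, a protease of IGFBP5 and IGFBP3, had 96.2, 288 and 2211 normalized counts in irradiated and 168, 218 and 1799 in non-irradiated replicates 1, 2 and 3 (log2 difference of replicate 3 minus replicate 1 of 3.96 ± 0.28, SE; adjusted p = 0.000135 in limma). Pappa, which cleaves IGFBP4, was highest in replicate 1 instead, with 9831, 4601 and 4801 in irradiated and 10912, 3095 and 4080 in non-irradiated libraries. Stc1, a secreted inhibitor of PAPP-A, had a log2 difference of replicate 3 minus replicate 1 of -1.50 ± 0.17 (SE), and Htra1, a serine protease and the most abundant of this list per kilobase, of -0.55 ± 0.10. Adam12, a metalloprotease second in abundance per kilobase, had 0.29 ± 0.17 and did not pass (adjusted p = 0.442 in limma).

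Receptors and adaptors held 5 of 9 tested genes that differed between numbers, against 13.4% of all tested genes. Grb10, an imprinted adaptor that restrains the receptors, had 28356, 15157 and 14812 normalized counts in irradiated and 30930, 12950 and 14199 in non-irradiated replicates 1, 2 and 3. Of the main docking proteins of the receptor, Irs1 had 1190, 2057 and 2431 in irradiated and 1465, 1649 and 2883 in non-irradiated replicates 1, 2 and 3, highest in replicate 3. Irs2 was highest in replicate 1, with a log2 difference of replicate 3 minus replicate 1 of -0.62 ± 0.12 (SE). Lrp1, an endocytic receptor and the most abundant of this list per kilobase, had -0.51 ± 0.12, and Grb14, another inhibitory adaptor, 0.76 ± 0.19. Of the intracellular PI3K, AKT, mTOR and FOXO genes 0 of 17 passed in limma between numbers, where 13.4% of all tested genes did. Akt1 and Pik3r2, the most abundant of them per kilobase, had differences of -0.14 ± 0.09 and -0.04 ± 0.11 (SE).

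H19, the imprinted RNA next to Igf2 on chromosome 7 that is made from the other parental copy, had 5461, 80.2 and 1418 normalized counts in irradiated and 6182, 102 and 1657 in non-irradiated replicates 1, 2 and 3. It was lowest in replicate 2, while Igf2 was at or near its lowest in both replicates 1 and 2. In normalized counts H19 was 454 and 812 times Igf2 in the irradiated and non-irradiated libraries of replicate 1. It was 4.32 and 5.61 times Igf2 in those of replicate 2, and 1.18 and 1.32 times in those of replicate 3. The values of replicate 1 rest on 11 and 9 reads of Igf2, and those of replicate 2 on 19 and 18. Against the sum of Igf2 and Gm49394 the values of replicate 1 were 125 and 81.2, in which the irradiated library is the higher. Those of replicate 2 were then 0.61 and 0.90, below the unchanged values of replicate 3. H19 passed the replicate number test (adjusted p = 4.44e-07 in limma), as did Igf2bp1 (0.00805) and Igf2bp3 (0.000250), which encode proteins that bind Igf2 mRNA, and Plagl1, an imprinted transcription factor (0.000394). Igf2bp3 was highest in replicate 1, with 1019, 165 and 225 in irradiated and 883, 98.4 and 224 in non-irradiated replicates 1, 2 and 3.

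The genes whose profile over the 6 libraries lay closest to those of the 3 most variable members were taken by the root mean square (RMS) difference of centred log2 values. Closest to Igf2 were Alpl, the alkaline phosphatase of mineralizing tissue, at 0.84, Pcp4l1 at 1.17 and Onecut2, a transcription factor, at 1.22, where the RMS spread of Igf2 itself is 3.05. Alpl had 13.1, 31.3 and 538 normalized counts in irradiated and 14.4, 17.2 and 503 in non-irradiated replicates 1, 2 and 3. Closest to Igfbp2 (RMS spread 2.14) were Tnn, a tenascin of the extracellular matrix, at 0.29, Pcp4l1 at 0.40 and Cav3 at 0.56. Tnn had 728, 8418 and 35510 normalized counts in irradiated and 1216, 6859 and 37307 in non-irradiated replicates 1, 2 and 3. Closest to Igfbp6 (RMS spread 0.80) were Lrrn4cl at 0.14, Car6, a secreted carbonic anhydrase, at 0.14 and Sparcl1, a matricellular protein, at 0.15.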

How the data were processed

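Per the submitters' processing notes, the tools were HISAT2 2.2.1, StringTie 2.1.7, FastQC 0.11.9 and Trimmomatic 0.39, and the build GRCm39. No source used here gives the annotation release or strand setting. The deposited values are a signal, gene counts divided by 1 size factor per library by the authors, beside their DESeq2 results: per the file headers, each gene has a log2 fold change, a p-value and a statistic (a score). Of 20745 rows, 80 repeated an identifier and were dropped. Divided by the smallest step of their library, 100% of values came out as whole reads (tolerance 0.001).

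Groups and replicate numbers came from the sample titles. Genes that reached 10 normalized counts in 3 or more libraries entered the limma 3.58.1 fit (R 4.3.3) of log2(normalized count + 1) (trend, 2-sided, threshold 0.05), without a block for irradiation and with irradiation as a term for the replicate number (2 residual degrees of freedom). The added 1 shrinks the fold changes of low genes. Over 13054 genes of mean at least 50, deviations from the group means correlated at 0.64, 0.47 and 0.57 between same-numbered libraries. Between others they correlated at most at 0.01. Centring on the group means in part forces low values there when same-numbered ones are high, so those low values are no separate support. From the same-numbered values the numbers were taken to pair the libraries. The members, lists and tests were chosen with earlier results of these data known. All members are named; of each pathway list, those that passed and the 2 most abundant per kilobase; and the 3 genes, of mean at least 50, nearest to each of the 3 members of widest range, without unnamed gene models. The sum of a further marker list is not reported here. Alternatives were edgeR 4.0.16 and DESeq2 1.42.0 on recovered reads, other pseudocounts, filters and scalings, and each library left out; the sum of Igf2 and Gm49394 was added after seeing the data.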

Additional observations from a re-analysis of the deposited data

How the results depend on the processing

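The count of genes called for irradiation was 0 in limma without the block. It was 3 with the replicate block, 2 with the replicate block in edgeR, 5 in DESeq2 without it and 24 in the authors' deposited table, and leaving out 1 library gave 0 to 1. The IGF genes passed in none of these fits. In the authors' table the standard errors of Igfbp2 and Igf2 were 0.09 and 0.30. These lie near the 0.08 and 0.32 of limma with the block, against 1.58 and 2.26 without it. The count for the replicate number, 2165, was 1154 without a filter on low values, and leaving out 1 library gave 2138 to 4413, the highest without irradiated replicate 2. Of the 10 IGF genes 8 passed in limma, against 2165 of 16141 tested genes. Without the filter 5 passed, against 1154 of 20665, and in edgeR 7, against 2036 of 16141. With 1 library left out 6 to 9 passed. The 9 came without irradiated replicate 2, against 4413 of 15857 tested genes. The 6 came without irradiated replicate 3 (against 2138 of 15822) and without non-irradiated replicate 3 (against 2202 of 15838). With a filter of 50 normalized counts Igf2 was not tested and 7 of 9 passed, against 2208 of 13115. For Igf1r the difference of replicate 3 minus replicate 1 ran from -0.026 to 0.29 with 1 library left out, the negative value without irradiated replicate 1. In the unblocked irradiation contrast, leaving out 1 library breaks a pair, and the log2 fold change then ran from -1.89 to 2.39 for Igf2 and from -1.40 to 1.25 for Igfbp2. Other scalings moved the median of all genes to between -0.02 and -0.003. Depth limits Igf2 in replicates 1 and 2, where it rests on 9 to 19 reads.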

Other observations

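Summed per kilobase, the 6 binding protein genes had 46672, 44701 and 95923 normalized counts in irradiated replicates 1, 2 and 3, against 43354, 47533 and 95222 in the non-irradiated ones, so replicate 3 held the highest sum in both groups. The ligands Igf1 and Igf2 together had 136, 299 and 690 per kilobase in irradiated and 167, 246 and 606 in non-irradiated replicates 1, 2 and 3. The sum of the binding proteins was therefore 344, 149 and 139 times that of the ligands in irradiated and 260, 193 and 157 times in non-irradiated replicates 1, 2 and 3. These ratios compare transcript levels and rest on exon lengths of another build. Of the binding protein sum, Igfbp7, a relative with low affinity for IGFs, made up 59.9%, 53.3% and 30.1% in irradiated replicates 1, 2 and 3. Its share was 59.1%, 50.9% and 28.7% in the non-irradiated ones.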
